A study of Mus musculus with 6 samples.

Results

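The core of the circadian clock was followed through 10 genes in cells enriched for lung ECs from leene-KO and WT mice. They were taken by gene symbol from the 47729 genes counted in each library. They comprise the positive arm (Arntl, Clock and Npas2), the Per and Cry arm (Per1, Per2, Per3, Cry1 and Cry2), and a further repressor and a kinase of the same machinery (Ciart and Csnk1d). All 10 passed the filter on low counts, among 14625 genes that did. The series holds 3 WT and 3 KO libraries of poly(A)-selected RNA. KO mice lack, in every cell, the chromosome 14 region that corresponds to the human LEENE gene, and the study describes a C57BL6 background with WT littermates as controls. Both groups were males of 14 weeks on a chow diet, and both received AngII at 1000 ng/kg/min from an osmotic pump for 2 weeks, so no library shows the clock without AngII. The labels name CD31 enrichment, whereas the study's methods name sorting on CD144, and the labels say that cells of 3 mice were pooled in each group. Whether a library stands for 1 mouse is therefore not settled, and the p-values below measure the spread between libraries, which may be technical. Neither source gives the hour at which the lungs were taken, so whether it differed between the groups could not be tested.

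The clock is a feedback loop of transcription. BMAL1, the product of Arntl, pairs with CLOCK or with its paralog NPAS2 on E-box sequences and activates Per and Cry genes, whose proteins return to the nucleus and inhibit the pair until they are degraded. Casein kinase 1 delta, encoded by Csnk1d, phosphorylates PER proteins, and CIART, also called CHRONO, represses BMAL1. REV-ERB and ROR nuclear receptors close a further loop on Arntl and related genes, and DBP, TEF and HLF activate genes through D-boxes, where NFIL3 acts against them. Because of these loops, clock transcripts peak at different times of the day. Vascular cells carry such a clock, and blood pressure follows a daily rhythm.

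Promoters are shown first, since they hold the letters of the sites that these factors are known to use. RefSeq promoters of GRCm38.p6, running from 250 bases before to 50 bases after a start site, were found for 8 of the 10 members, 12 promoters in all. Per2 and Csnk1d had no entry. Both strands were searched for the E-box CACGTG, its variant CACGTT, the D-box TTATGNAA and AGGTCA, the core sequence that ROR and REV-ERB bind. No matches overlapped each other. Among the 32851 promoters of the table, 7.15% held the E-box, 4.68% its variant, 3.38% the D-box and 16.3% the ROR core. The stretches below are written 5′ to 3′ on the strand of the gene, with the matches in capitals. They are shown as a description of what lies around each start site. Whether these letters have a part in the differences between KO and WT was not tested.
Per3, with D-boxes (chr4:151044801-151044885, minus strand): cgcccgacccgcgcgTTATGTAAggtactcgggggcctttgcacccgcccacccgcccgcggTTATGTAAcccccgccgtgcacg
Per1, with an E-box, a ROR core read on the other strand and a D-box (chr11:69098768-69098947, plus strand): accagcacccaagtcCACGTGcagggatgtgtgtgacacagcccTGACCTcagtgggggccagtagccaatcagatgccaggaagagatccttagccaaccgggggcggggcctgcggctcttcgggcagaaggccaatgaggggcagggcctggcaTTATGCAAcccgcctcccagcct
Cry1, with the variant read on the other strand and an E-box (chr10:85185094-85185148, minus strand): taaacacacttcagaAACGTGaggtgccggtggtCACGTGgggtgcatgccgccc
Cry2, with the variant read on the other strand (chr2:92434215-92434250, minus strand): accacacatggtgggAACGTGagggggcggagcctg
Ciart, with E-boxes (chr3:95882252-95882359, minus strand): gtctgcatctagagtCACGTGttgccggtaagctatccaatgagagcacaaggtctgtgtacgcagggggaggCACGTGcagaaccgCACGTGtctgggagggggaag
Arntl, with a ROR core (chr7:113207530-113207559, plus strand): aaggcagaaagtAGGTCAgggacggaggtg
The Per3 promoter held 2 D-boxes, at 205 and 158 bases before the start site, and 0.161% of all promoters held 2 or more. The Ciart promoter held 3 E-boxes, as did or exceeded 0.0883% of all promoters. Arntl and Per1 have 2 promoters each in the table, and the matches lie in 1 of them. The ROR core of Arntl begins at base 32 of the transcript that starts there. Clock had a ROR core in 1 of its 3 promoters and Npas2 had none of these letters in its window. A match is a description of the sequence and does not show that a factor bound there in these cells.

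The makeup of the libraries was checked by markers, as CPM (counts per 1e+06 reads after TMM scaling of the libraries). The summed CPM of 10 EC markers was 1635 to 3055 in WT and 1953 to 3223 in KO, and all 10 were detected, with Pecam1 at 313 to 582 CPM. Of the 10, 1 did not overlap between the groups, against 17.8% of all genes tested. This was Kdr, at 93.3 to 138 CPM in WT and 161 to 264 CPM in KO. Alveolar type II markers (5 genes, Sftpc first) summed to 4934, 46390 and 14404 CPM in WT and to 36566 to 44951 CPM in KO. WT replicate 2 thus had the highest sum of the 6 libraries, close to those of KO, whereas WT replicates 1 and 3 lay below every KO library. Fits without WT replicate 2 and with these markers as a covariate are given at the end. Markers of B cells (5 genes, Cd79a first) summed to 8.27 to 20.8 CPM in WT and 67.7 to 72.8 CPM in KO, with all 5 higher without overlap, and those of T cells (5 genes, Cd3d first) to 1.64 to 3.14 and 5.44 to 6.83 CPM. No marker of any list was at 0 in a library. The part of these lymphocytes in the clock values was not tested. The lists of club and ciliated cells (Scgb1a1 first), macrophages (Marco first), neutrophils (S100a8 first) and mesenchyme (Col1a1 first) overlapped between the groups in their summed CPM. Within the mesenchyme list, Acta2 was lower in KO without overlap. The sum for club and ciliated cells was 15446 to 40504 CPM in WT and 33647 to 56883 CPM in KO. In every library it was above the sum of the EC markers. Such sums do not give the share of each cell type, but the clock levels below cannot be assigned to ECs alone. Mitochondrial genes took 37.4% to 54.5% of the counts in WT and 38.2% to 46.2% in KO.

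Between 24464324 and 35184063 reads were counted per library, and the members rested on 17 counts (Ciart in KO replicate 2) to 3324 counts (Csnk1d in WT replicate 1). None of the members (0 of 10) passed an adjusted p of 0.05 in the quasi-likelihood fit of edgeR, adjusted over all genes by Benjamini-Hochberg, against 0.109% of the 14625 genes tested (0.0342% higher and 0.0752% lower in KO). Before adjustment 6 had a p under 0.05, against 10.3% of all genes (4.68% lower and 5.62% higher). These were Arntl, Npas2, Per1 and Cry1 with lower and Per3 and Cry2 with higher levels in KO. The members were chosen with earlier results of these data known, so the shares of all genes are given only as a description. DESeq2 called 2 of the 10, Per1 (adjusted p = 4.76e-05) and Per3 (adjusted p = 0.0122), against 1.28% of the genes to which it gave an adjusted p. For the same 6 members every KO library lay on one side of every WT library, against 17.8% of all genes tested (9.2% below and 8.59% above). This separation was kept by 5 of the 6 when libraries were scaled by RLE, where Cry2 overlapped, against 18.4% of all genes. It was kept by 4 with total counts, where Arntl overlapped too, against 11.4% of all genes. The median log2 fold change of the members was -0.38, beside 0.03 over all genes tested. It was below 0 for 8 of the 10, and for 45.9% of all genes. In bulk RNA of this kind, a lower level in each cell and fewer cells that carry the transcript cannot be told apart. Clock transcripts also change over the day, and the part of the hour of collection in these differences was not tested.

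**Figure D1:**
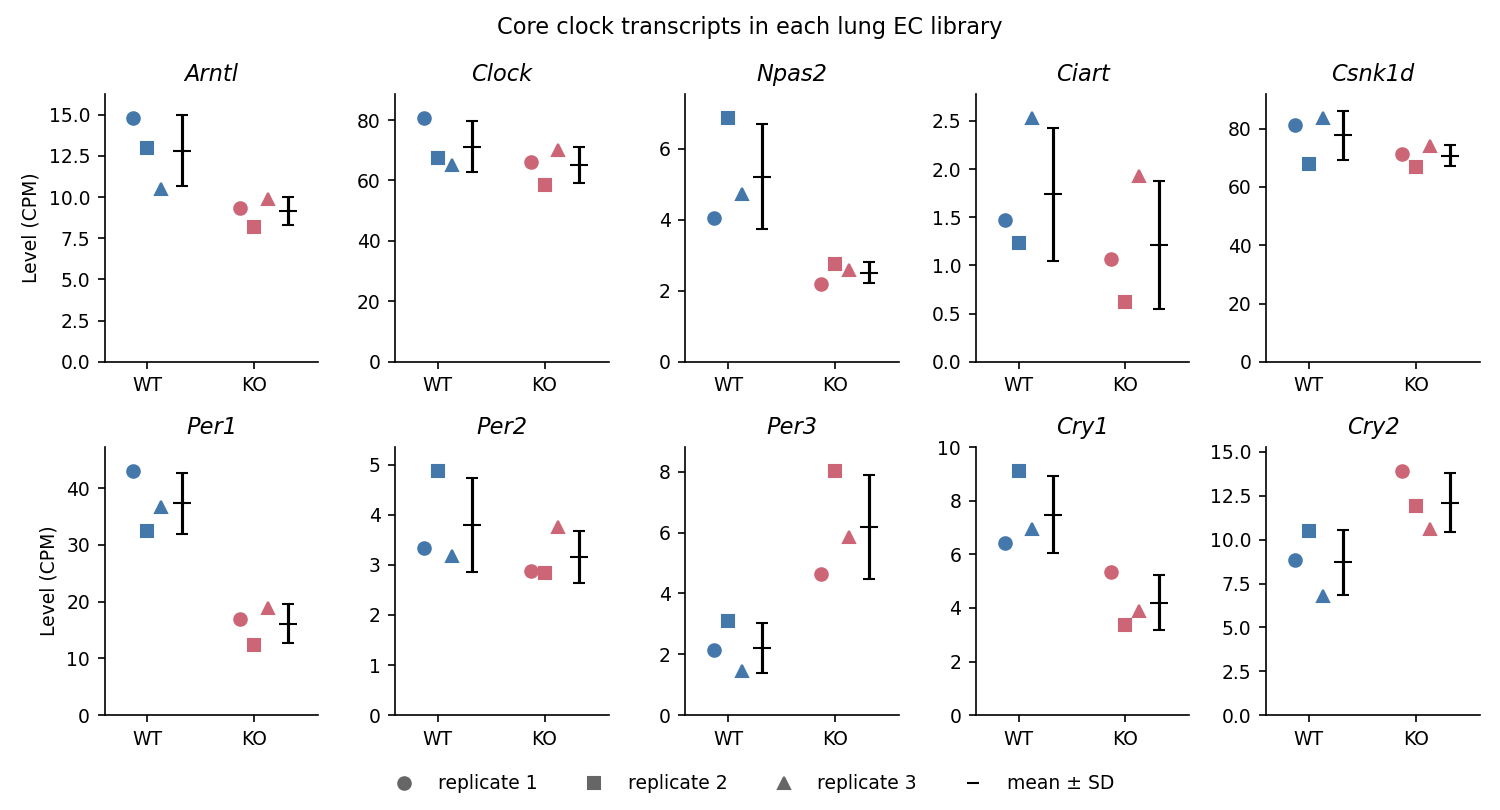
Level of each core clock gene (CPM, linear axis from 0, one scale per panel) in the 3 WT and 3 KO libraries, with the marker shape giving the replicate and the bar the mean ± SD. Per1 lies at 32.4 CPM or more in WT and 18.9 CPM or less in KO, and Per3 at 3.08 CPM or less in WT and 4.64 CPM or more in KO, whereas the groups of Clock, Ciart, Csnk1d and Per2 overlap.

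In the positive arm, Npas2 showed the largest difference, Arntl a smaller one and Clock none beyond the spread. Npas2 (ENSMUSG00000026077, GRCm38, chromosome 1, 39193731 to 39363236) encodes the paralog that can replace CLOCK. Its WT levels were 4.04, 6.87 and 4.73 CPM in the order of replicates 1, 2 and 3, which is kept below, and its KO levels were 2.19, 2.76 and 2.59 CPM. All KO libraries lay below all WT libraries, and the WT libraries were the more scattered, with a coefficient of variation of 28.3% against 11.6%. The WT mean was 5.21 ± 1.48 CPM and the KO mean 2.51 ± 0.291 CPM (SD, n = 3), which gave a log2 fold change of -1.05 (SE 0.26, adjusted p = 0.287 from the quasi-likelihood test).

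Arntl (ENSMUSG00000055116, chromosome 7, 113207465 to 113314122), which encodes BMAL1, the partner shared by both, had WT levels of 14.8, 13 and 10.5 CPM against KO levels of 9.33, 8.20 and 9.90 CPM. The groups did not overlap, but WT replicate 3 stood only 1.06 times above KO replicate 3. The log2 fold change was -0.49 (SE 0.17, adjusted p = 0.423 from the quasi-likelihood test), from a WT mean of 12.8 ± 2.16 CPM and a KO mean of 9.14 ± 0.863 CPM (SD, n = 3).

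Clock (ENSMUSG00000029238, chromosome 5, 76209868 to 76304792), the usual partner of BMAL1, had 80.7, 67.4 and 65.1 CPM in WT libraries, with 66.2, 58.5 and 70.2 CPM in KO. KO replicates 1 and 3 lay within the range of the WT libraries. Its log2 fold change of -0.13 had a 95% interval of -0.46 to 0.20 (adjusted p = 0.748, quasi-likelihood test). The log2 fold change of Npas2 lies outside this interval, but the interval of Npas2, -1.65 to -0.45, meets that of Clock. In each library the 2 paralogs can be set against each other without any scaling. The log2 ratio of Npas2 to Clock counts was -4.32, -3.29 and -3.78 in WT and -4.90, -4.40 and -4.75 in KO. It was lower in KO by 0.89 on average, and no KO library reached a WT library (exact permutation test, two-sided, p = 0.1, the smallest that 3 against 3 libraries allow, and 0.1 after adjustment over 6 pairs). The log2 ratio of Arntl to Clock was -2.44, -2.37 and -2.63 in WT and -2.83, -2.83 and -2.82 in KO, with the same permutation p of 0.1.

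The 3 Per genes, whose proteins form the inhibitory complex with CRY, did not share a direction. Per1 was lower in every KO library, Per3 was higher in every one and Per2 overlapped between the groups. Per1 (ENSMUSG00000020893, chromosome 11, 69095217 to 69109960) stood at 43.0, 32.4 and 36.7 CPM in WT, and its KO levels were 17, 12.3 and 18.9 CPM. The lowest WT library was 1.71 times the highest KO library, the widest gap among the members. The means were 37.3 ± 5.31 CPM and 16.1 ± 3.41 CPM (SD, n = 3), a log2 fold change of -1.22 (SE 0.19, adjusted p = 0.0954 from the quasi-likelihood test). Of all genes tested, 40 had a smaller p than Per1.

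Per3 (ENSMUSG00000028957, chromosome 4, 151003652 to 151044665) had WT levels of 2.13, 3.08 and 1.45 CPM, and 4.64, 8.02 and 5.86 CPM were measured in KO. The lowest KO library was 1.51 times the highest WT library. Its log2 fold change was 1.46 (SE 0.33, adjusted p = 0.259 from the quasi-likelihood test), from 2.22 ± 0.820 CPM to 6.17 ± 1.71 CPM (SD, n = 3). These levels rest on 31 to 218 counts. Per3 lies within the span of Camta1 on the same strand, although the 2 genes share no exonic base. The Camta1 mean was 8.81 ± 0.428 CPM in WT against 7.70 ± 0.631 CPM in KO (SD, n = 3), and the log2 fold change of -0.19 (SE 0.15) had the opposite sign, with overlapping groups.

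Per2 (ENSMUSG00000055866, chromosome 1, 91415982 to 91459324) had 3.33, 4.87 and 3.18 CPM in WT libraries, with 2.88, 2.83 and 3.76 CPM in KO. KO replicate 3 was above WT replicates 1 and 3, and the log2 fold change of -0.27 had a 95% interval of -0.86 to 0.33 (adjusted p = 0.713, quasi-likelihood test).

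The Per genes were also set against each other within each library. The log2 ratio of Per2 to Per3 counts was 0.64, 0.66 and 1.12 in WT and -0.68, -1.5 and -0.64 in KO, so Per2 had more counts than Per3 in every WT library and fewer in every KO library. The log2 ratio of Per1 to Per3 was 4.12 ± 0.65 in WT and 1.39 ± 0.68 in KO (SD, n = 3), the largest shift of the 6 ratios, at -2.73. That of Per1 to Per2 was 3.31 ± 0.51 in WT and 2.33 ± 0.22 in KO, a shift of -0.98. None of these ratios overlapped between the groups, and each gave the exact permutation p of 0.1. For Per1 to Per3 this p was fixed by the separation already given, since Per1 was lower and Per3 higher in every KO library.

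The 2 cryptochromes, which carry the inhibition of CLOCK and BMAL1, also differed in sign. Cry1 (ENSMUSG00000020038, chromosome 10, 85131702 to 85185054) had WT levels of 6.41, 9.10 and 6.93 CPM against KO levels of 5.33, 3.35 and 3.90 CPM. All KO libraries lay below the WT libraries, by a factor of 1.20 at the closest. The log2 fold change was -0.84 (SE 0.24, adjusted p = 0.338 from the quasi-likelihood test), with means of 7.48 ± 1.43 CPM and 4.19 ± 1.02 CPM (SD, n = 3).

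Cry2 (ENSMUSG00000068742, chromosome 2, 92403646 to 92434043) had WT levels of 8.84, 10.5 and 6.79 CPM, whereas 13.9, 11.9 and 10.6 CPM were measured in KO. KO replicate 3 and WT replicate 2 were nearly level, at a ratio of 1.01, so the separation of the groups is at its limit. The log2 fold change was 0.47 (SE 0.20, adjusted p = 0.482 from the quasi-likelihood test), from 8.71 ± 1.86 CPM to 12.1 ± 1.67 CPM (SD, n = 3). Cry2 shares 295 exonic bases with the antisense gene D930015M05Rik, which had 1 count in all 6 libraries together, and counting used strand. The log2 ratio of Cry1 to Cry2 was -0.46, -0.21 and 0.03 in WT and -1.38, -1.83 and -1.43 in KO. It was lower by 1.33 in KO, with SDs of 0.25 and 0.24 (n = 3) and the exact permutation p of 0.1. This p adds nothing to the separation already given, since Cry1 was lower and Cry2 higher in every KO library.

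Ciart and Csnk1d showed no difference beyond the spread. Ciart (ENSMUSG00000038550, chromosome 3, 95878503 to 95882251) had 1.47, 1.23 and 2.53 CPM in WT libraries, with 1.07, 0.625 and 1.93 CPM in KO, on 17 to 60 counts. Replicate 3 was the highest in both groups. Its log2 fold change of -0.50 had a 95% interval of -1.65 to 0.64 (adjusted p = 0.717, quasi-likelihood test), the widest among the members. Csnk1d (ENSMUSG00000025162, chromosome 11, 120961749 to 120991330) had WT levels of 81.4, 68.0 and 83.7 CPM against KO levels of 71.2, 66.9 and 74.1 CPM, and a log2 fold change of -0.14 with a 95% interval of -0.45 to 0.18 (adjusted p = 0.722, quasi-likelihood test).

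**Figure D2:**
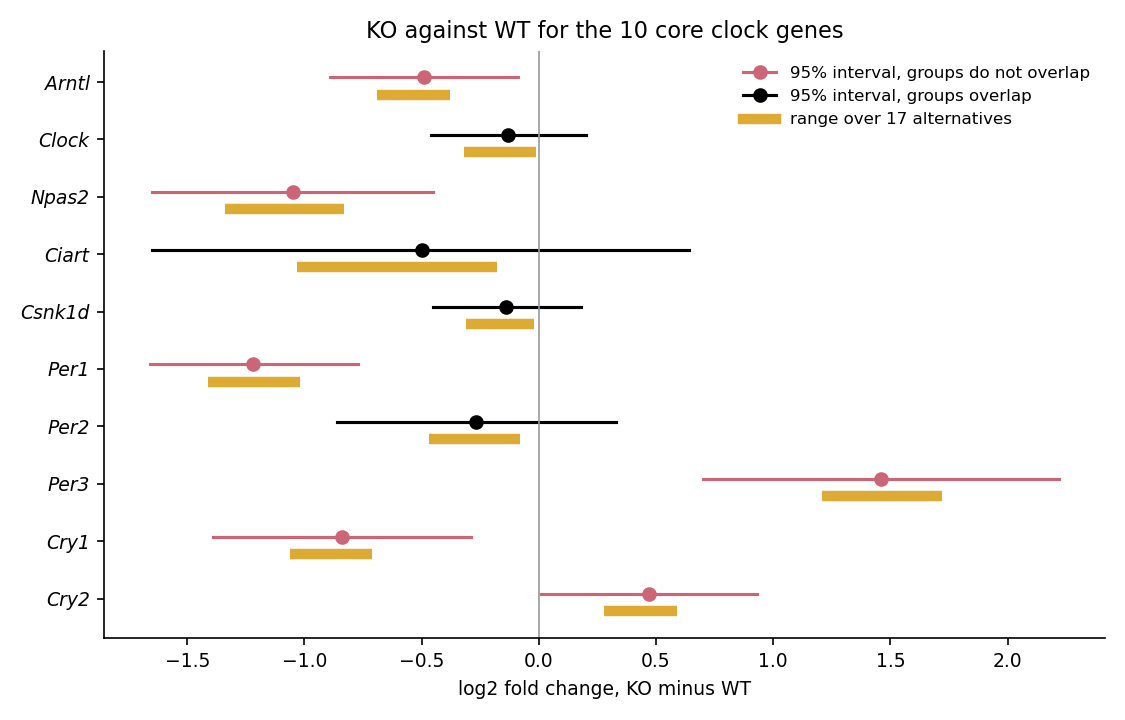
Log2 fold change between KO and WT for the 10 genes, with the 95% interval of the quasi-likelihood fit (thin lines, red where the 3 KO and 3 WT libraries do not overlap and black where they do) and, below each, the range over the 17 alternative fits (yellow). Per3 and Cry2 lie to the right of 0 and the other 8 genes to the left, with Per3 at 1.46 and Per1 at -1.22 the farthest out.

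The positive arm was set against the Per and Cry arm as a whole, as the means of log2 CPM (with a prior count of 2) over the 3 and the 5 genes. The positive arm was at 4.09, 4.19 and 3.90 in WT and 3.49, 3.47 and 3.62 in KO, so that it was lower in every KO library, by 0.53 on average. The Per and Cry arm was at 2.84, 3.12 and 2.62 in WT and 2.83, 2.71 and 2.83 in KO, a difference of -0.07 in which the groups overlap. The members of the second arm had either sign, since 2 of its 5 genes were lower without overlap (Per1 and Cry1), 2 were higher (Per3 and Cry2) and 1 overlapped (Per2). The positive arm minus the Per and Cry arm was 1.25, 1.08 and 1.28 in WT and 0.66, 0.77 and 0.79 in KO, a difference of -0.46 given here as a description. The difference was -0.23 when Npas2 was left out.

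**Figure D3:**
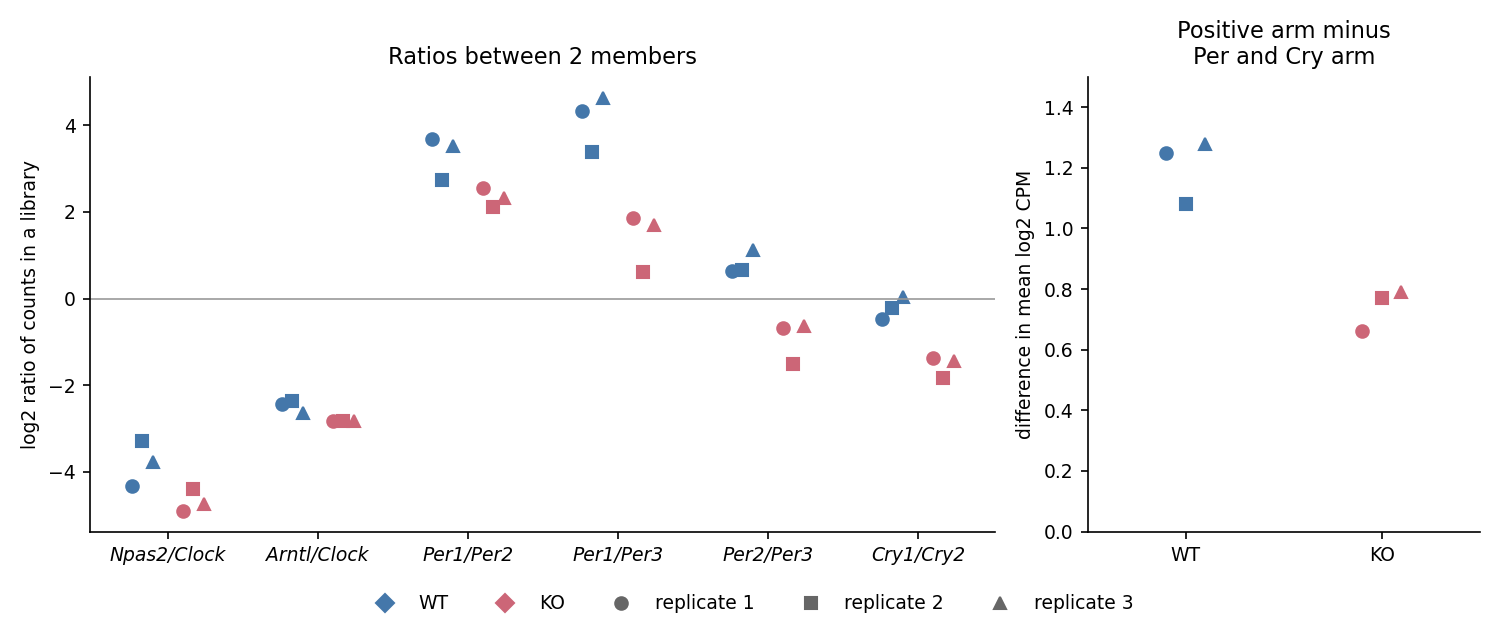
Left, the log2 ratio of the counts of 2 members in each library, for 6 pairs; right, the mean log2 CPM of the positive arm minus that of the Per and Cry arm in each library, with WT in blue, KO in red and the marker shape giving the replicate. In each of the 6 pairs the KO libraries lie below the WT libraries, and the difference between the arms is 1.08 to 1.28 in WT and 0.66 to 0.79 in KO.

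Levels can be compared between genes only per length, as RPKM over the annotated exons. In WT the order of the RPKM means was Csnk1d (15.5), Per1 (6.63), Clock (5.18), Arntl (4.41), Cry1 (2.48), Cry2 (1.38), Npas2 (1.09), Ciart (0.771), Per2 (0.648) and Per3 (0.231). Neighbors whose WT libraries overlapped were Per1 and Clock, Clock and Arntl, Cry2 and Npas2, Npas2 and Ciart, and Ciart and Per2. In KO the order was Csnk1d (14.1), Clock (4.73), Arntl (3.15), Per1 (2.85), Cry2 (1.92), Cry1 (1.39), Per3 (0.643), Per2 (0.539), Ciart (0.535) and Npas2 (0.524). Per1 thus stood above Clock and Arntl in the WT order and below them in the KO order, Cry2 stood above Cry1 in KO, and Per3 above Per2, Ciart and Npas2. In KO, Arntl overlapped with Per1, Per1 with Cry2, Cry2 with Cry1, and the last 4 genes with each other. Within each KO library, however, Arntl was above Per1, Per1 above Cry2 and Cry2 above Cry1. Among the last 4 genes, Per3 was above Npas2 in each KO library. The rest of their order differed between the KO libraries.

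**Figure D4:**
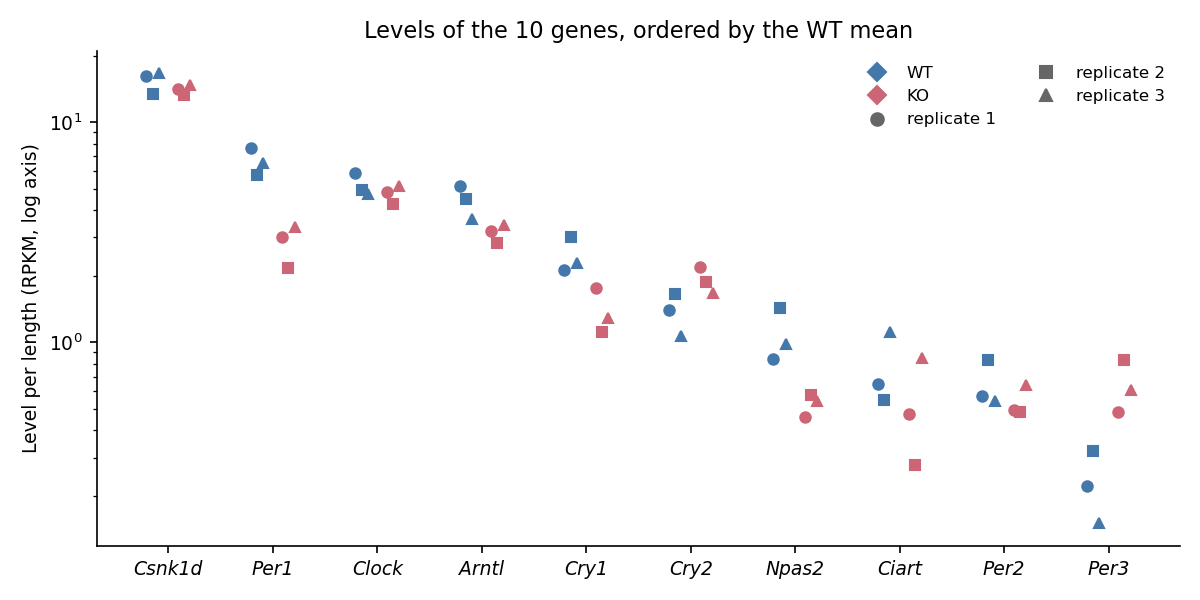
Level per length (RPKM, log axis) of each gene in the WT (blue) and KO (red) libraries, ordered by the WT mean, with the marker shape giving the replicate. Csnk1d is at 13.3 to 16.7 RPKM in all 6 libraries, and Per3, the lowest in WT at 0.151 to 0.321 RPKM, is at 0.483 to 0.835 RPKM in KO.

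The distance from the other group was not carried by the same library throughout. Among the 6 members without overlap, the KO library farthest from WT was replicate 2 for 4 genes (Arntl, Per1, Per3 and Cry1) and replicate 1 for 2 genes (Npas2 and Cry2). On the WT side each of the 3 libraries was the farthest for 2 of the 6 genes. KO replicate 2 was also the KO library with the lowest Clock, Per2, Ciart and Csnk1d.

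A list of 39 other clock genes, also chosen with earlier results of these data known, was read from the same fit. All 39 were tested. At an adjusted p under 0.05, 1 was called (Dbp), against 0.109% of all genes, and 6 with higher and 3 with lower KO levels had an unadjusted p under 0.05, against 10.3%. The groups did not overlap for 14 of them, 8 above and 6 below, against 17.8% of all genes, and the median log2 fold change was -0.09. The 9 nuclear receptors and bZIP factors had larger values, with 5 of the 9 higher without overlap and 1 lower, and a median of 0.93. Nr1d1, which encodes the repressor REV-ERB alpha, had 31.3, 25.7 and 12.9 CPM in WT libraries, with 59.1, 80.8 and 83.6 CPM in KO, and a log2 fold change of 1.67 (SE 0.31, adjusted p = 0.167 from the quasi-likelihood test). Nr1d2, its paralog, had a WT mean of 15.2 ± 2.90 CPM and a KO mean of 37.1 ± 2.12 CPM (SD, n = 3), with a log2 fold change of 1.28 (adjusted p = 0.0520, quasi-likelihood test).

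Among the D-box factors, Dbp rose, with a log2 fold change of 3.15 (SE 0.31, adjusted p = 0.0188 from the quasi-likelihood test), from 3.28, 1.76 and 1.78 CPM in WT to 16.8, 26.1 and 18.5 CPM in KO. The call of Dbp was lost without WT replicate 3 (adjusted p = 0.0659) and without KO replicate 1, 2 or 3 (adjusted p = 0.0924, 0.126 and 0.159, quasi-likelihood test), at log2 fold changes between 2.90 and 3.25. Tef and Hlf, which act on the same sites, were higher without overlap, at 0.93 and 0.94 on the log2 scale (adjusted p = 0.259 and 0.254). Nfil3, which opposes them, had WT levels of 4.65, 7.90 and 3.79 CPM against KO levels of 2.66, 1.84 and 1.52 CPM, and a log2 fold change of -1.45 (adjusted p = 0.283).

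The other classes on the list held 5, 6, 7, 10 and 2 genes. Among them 1 gene was higher and 2 were lower at an unadjusted p under 0.05, against 10.3% of all genes. Those that passed are given here with the paralogs of Arntl and Csnk1d. Bhlhe40, a bHLH repressor that competes for E-boxes, had a WT mean of 28.9 ± 1.03 CPM and a KO mean of 22.8 ± 0.875 CPM (SD, n = 3), and a log2 fold change of -0.34 with no overlap (adjusted p = 0.388). Sfpq, a partner of PER complexes, was at -0.51 (adjusted p = 0.307), and Fbxl21, a ligase subunit for CRY, at 1.65 on no more than 17 counts in a library. Arntl2, the paralog of Arntl, rested on 1 to 30 counts in a library and overlapped between the groups. Csnk1e, the paralog of Csnk1d, had a log2 fold change of -0.26 (SE 0.15). The 6 kinases on the list, Csnk1e included, had values between -0.26 and -0.05. The groups did not overlap for 2 of them (Gsk3b and Prkaa1), against 17.8% of all genes tested.

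**Figure D5:**
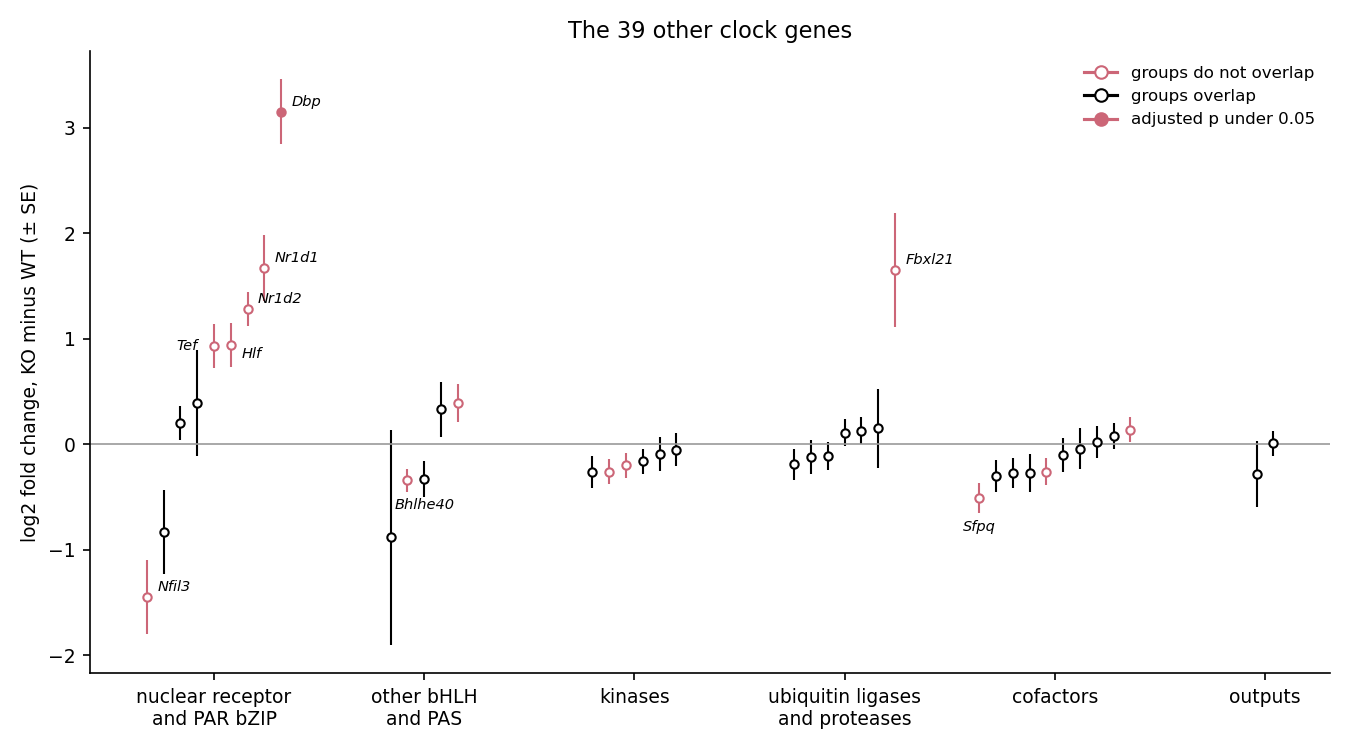
Log2 fold change between KO and WT (± SE) of 39 other clock genes by class, with red points where the 3 KO and 3 WT libraries do not overlap, black points where they do, and a filled point for an adjusted p under 0.05. Dbp, at 3.15, is the only filled point, and the kinases lie between -0.26 and -0.05.

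Leaving out WT replicate 2 brought Per1 and Per3 past the threshold (adjusted p = 0.0213 and 0.0335, quasi-likelihood test), with log2 fold changes of -1.35 and 1.72. That fit called 791 genes in all, 5.29% of those tested, against 16 with every library. The WT libraries left in it had alveolar type II sums of 4934 and 14404 CPM, below every KO library (36566 to 44951 CPM). The part of this difference in the calls was not tested. Without any one KO library 0 genes were called over the whole table, with 986 to 1112 at an unadjusted p under 0.05. In these 6 fits, the log2 fold change of Per1 lay between -1.35 and -1.09, Per3 between 1.21 and 1.72, Npas2 between -1.22 and -0.83, Cry1 between -1.06 and -0.71, Arntl between -0.63 and -0.38 and Cry2 between 0.31 and 0.59. With the mean log2 level of the 5 alveolar type II markers as a covariate, the log2 fold changes were -1.02 for Per1, -1.34 for Npas2, -1.02 for Cry1, 1.21 for Per3, -0.41 for Arntl and 0.36 for Cry2.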

How the data were processed

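The authors deposited whole-number counts of reads per gene, 1 table per library, without normalization. Per the file headers, reads that aligned uniquely were counted with featureCounts 2.0.0 over exons, in the reverse orientation of a stranded library, on Ensembl release 84 of GRCm38. The submitters' processing notes name STAR 2.5.4b. Symbols came from GENCODE and covered 47224 of 47729 genes. Reads shared by overlapping exons were not counted. The leene genes were not analysed here.

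Genes were kept by filterByExpr, scaled by TMM and fitted in edgeR 4.0.16 (R 4.3.3, glmQLFit and glmQLFTest) with genotype as sole term. P-values were adjusted over all 14625 genes tested (Benjamini-Hochberg), with a threshold of 0.05. The SE was derived as the absolute log2 fold change over the square root of the F statistic of the test. The 95% intervals use this SE and the fit's moderated degrees of freedom. The study's methods name DESeq2, run here (version 1.42.0) as an alternative. Ratios between members were taken on counts plus 0.5 and tested by exact permutation over libraries. Tests were tried on simulated data. No 2 libraries agreed within counting error (lowest chi-square over its degrees of freedom, 37). Alternatives were limma-voom (limma 3.58.1), the likelihood ratio test, other scalings, filters and dispersion options, a replicate block, an alveolar type II covariate and leaving out each library. The text names all members, other clock genes with an unadjusted p under 0.05, the paralogs Arntl2 and Csnk1e, the first marker of each list, and the 5 genes most and least like Arntl. Gsk3b, Prkaa1, Camta1, Kdr and Acta2 were named after their values were seen. The members and lists were chosen with earlier results of these data known.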

Additional observations from a re-analysis of the deposited data

How the results depend on the processing

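All 170 log2 fold changes of the 10 members, from 17 alternatives each, kept the direction of the main fit, and 11 of them passed the threshold where the main fit did not. The count of members called was 0 in the main fit, 2 with DESeq2, total counts or no filter on low counts (Per1 and Per3 each time), 3 with the likelihood ratio test (Npas2 too), 6 at an unadjusted p, and 0 to 2 with each library left out, the 2 being reached without WT replicate 2. Genes called over the whole table were 16 in the main fit, 192 with DESeq2, 211 with the likelihood ratio test, 123 with total counts, 152 with no filter, 26 with limma-voom, 26 with RLE, 33 without mitochondrial genes, 49 with the alveolar type II covariate and 0 to 791 with each library left out, 791 being reached without WT replicate 2 and 0 without any one KO library (986 to 1112 at an unadjusted p under 0.05). Of the 39 other clock genes, 1 was called in the main fit, 6 with DESeq2, the likelihood ratio test or no filter, 3 with total counts, 2 with limma-voom, the newer dispersion option (legacy set to FALSE), RLE, no mitochondrial genes or the covariate, and 0 to 4 with each library left out. The cause of these moves was not tested. Total counts moved the median log2 fold change of all genes from 0.03 to -0.13. The difference between the arms was -0.23 without Npas2 and -0.53 to -0.43 with each library left out, and the log2 fold change of Arntl2 was -2.57 to 0.11 in those fits. With the replicate number as a block, 0 genes were called, with 1776 at an unadjusted p under 0.05, so that Dbp was not called and 0 of the other clock genes were, while the members stayed uncalled (Per1 at -1.23, adjusted p = 0.159). Libraries of the same number deviated from their group means with correlations of -0.08, 0.22 and 0.01 across genes. Libraries of different numbers had correlations from -0.18 to 0.19, and not every library correlated best with its own number. Deviations of 3 libraries from their mean sum to 0, so these correlations cannot decide whether the numbers pair the samples. The members and paralogs with the fewest counts were Ciart (17 to 60 in a library) and Arntl2 (1 to 30).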

Other observations

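The genes whose pattern over the 6 libraries was most like that of Arntl, by Pearson's r of log2 CPM, were Klf3 (0.995), Ago2 (0.994), Usp22 (0.992), Kpna4 (0.991) and Rbm15b (0.989). The genes at the other end were Styk1 (-0.989), Pfdn5 (-0.985), Slamf9 (-0.985), Tmem35b (-0.984) and Zfp277 (-0.983). None of the 10 was called between KO and WT (adjusted p between 0.328 and 0.628, edgeR's quasi-likelihood test). These values describe 6 points that share their library, its scaling and the division into 2 groups, and 83 genes had an r above 0.95. Among the members, r with Arntl was 0.89 for Per1, 0.83 for Clock, 0.75 for Cry1, 0.69 for Npas2 and 0.58 for Per2. It was 0.43 for Csnk1d, 0.38 for Ciart, -0.44 for Cry2 and -0.67 for Per3. Of all genes tested, 325 had a higher r than Per1, 678 than Clock and 1162 than Cry1. A higher r was found for 1580 genes than Npas2, 2359 than Per2, 3420 than Csnk1d and 3781 than Ciart.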
